A study of Homo sapiens with 10 samples.

Results

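EWSR1, TAF15 and TARDBP code for 3 RNA-binding proteins of the nucleus, and the splicing of their own transcripts was followed in A549 cells under inhibitors of transcription. Members were chosen by gene symbol, and an intron or exon was given to a gene when its GRCh37 splice sites matched that gene in GENCODE release 44 lifted to GRCh37. The members were 3 of 10800 genes with at least 1 listed intron, and they held 64 of 126404 listed introns and 128 of 270665 listed exons. EWSR1 (ENSG00000182944.18, chromosome 22, 29663998 to 29696515, plus strand) had 25 listed introns, of which 23 were annotated and 17 were seen in all 10 libraries. TAF15 (ENSG00000270647.7, chromosome 17, 34136486 to 34191619, plus strand) had 24, of which 19 were annotated and 17 were seen in all 10 libraries. TARDBP (ENSG00000120948.19, chromosome 1, 11072401 to 11090585, plus strand) had 15, of which 12 were annotated and only 5 were seen in all 10 libraries. Exons and introns are numbered below along the transcripts EWSR1-206, TAF15-214 and TARDBP-201, which have 17, 16 and 6 exons.

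EWSR1 and TAF15 belong to the FET family, whose members carry a low-complexity N-terminal domain, an RNA recognition motif, arginine-glycine repeats and a zinc finger. EWSR1 is best known from the gene fusions of Ewing sarcoma, and TAF15 was first described as a factor associated with TFIID, the general transcription factor that holds the TATA-binding protein. TARDBP codes for TDP-43, which binds UG-rich RNA, represses cryptic exons and has a glycine-rich C-terminal domain encoded by the last exon. TDP-43 is known to limit its own mRNA by binding the 3′ untranslated region (3′UTR), where further introns can be spliced and other polyadenylation sites used. FET proteins and TDP-43 all shuttle between nucleus and cytoplasm, enter stress granules and aggregate in forms of amyotrophic lateral sclerosis and frontotemporal dementia.

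The cells were A549, an established human lung adenocarcinoma line, and each of 5 conditions had 2 libraries of polyadenylated RNA. Controls received DMSO, the solvent. DRB, a nucleoside analog that inhibits the kinase CDK9, was given at 10 or 25 µg/mL, and α-amanitin, a fungal peptide that blocks RNA polymerase II, was given at 1 or 2 µg/mL for 24 h. The sources used here do not give how long DMSO and DRB were applied. The study's methods speak of bioreplicates, but whether the 2 libraries of a condition came from separate cultures is not stated. The spread between libraries that enters the p-values, moderated over all features, may therefore be only technical. Libraries held 2899344 to 6498515 split reads, which are reads that cross a splice junction. The lowest total and the fewest listed introns (45513, against 74739 to 90955 outside the higher DRB dose) were both in library 1 of 25 µg/mL DRB. Of the epithelial markers, KRT8 (181 to 642 CPM, split reads scaled to one common library total) and KRT18 (103 to 586) were seen in every library, whereas KRT19, EPCAM and CDH1 had no listed intron in any. Of the aldo-keto reductases typical of this line, AKR1C2 was seen in every library (11.1 to 187 CPM), and AKR1B10 and AKR1C1 reached 40.4 and 75.7 but were listed at 0 in at least 1 library. The leukocyte marker PTPRC and the endothelial marker PECAM1 were listed at 0 throughout, and the fibroblast collagen COL1A1 ranged from 0 to 156 CPM; its part in the results was not tested. The smallest count above 0 in any file was 3, so that a 0 may stand for up to 2 reads. A gene listed at 0 here is one with no listed intron in the files used, which does not show that its transcript was absent.

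The splice sites at which the transcripts varied are printed here from the GRCh37 sequence, 5′ to 3′ on the plus strand, with GT of the donor or AG of the acceptor in capitals. The first lines hold the donor of the last canonical intron of TARDBP (chr1:11080647-11080676) and a later acceptor that was joined to it only at 25 µg/mL DRB (chr1:11083230-11083259).
TARDBP exon 5 donor: agatgatcagGTatttttctccttaacgat
TARDBP later acceptor: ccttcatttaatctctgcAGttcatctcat
The next 4 delimit a pair of introns wholly inside the last exon of TARDBP, beyond the coding sequence (chr1:11083377-11083406, chr1:11084101-11084130, chr1:11084383-11084412 and chr1:11085147-11085176).
TARDBP first 3′UTR donor: gtctttgacgGTgggtgtcccatttttatc
TARDBP first 3′UTR acceptor: tatgtgtctttgttttgcAGccctgaatgc
TARDBP second 3′UTR donor: acctaaaatgGTaagcagtaccctccggct
TARDBP second 3′UTR acceptor: atctgaattttgcattttAGcacttgcact
The TAF15 sites are the competing donors of exon 7 (chr17:34151094-34151123 and chr17:34151193-34151222) and the acceptor of exon 8 that both used (chr17:34160891-34160920).
TAF15 exon 7 early donor: atgtgagtagGTatggagaagataatagag
TAF15 exon 7 late donor: caggatcaagGTaagtatgtagataaagat
TAF15 exon 8 acceptor: cttcaatttttcctctgcAGtggtggtgac
The last lines hold pairs of sites within a few bases of each other, the acceptors of EWSR1 exon 9 (chr22:29687533-29687562) and the donors of TAF15 exon 4 (chr17:34147234-34147263).
EWSR1 exon 9 acceptor pair: cttcgtttatccccccAGcAGcgctggaga
TAF15 exon 4 donor pair: tatggacaaaGTcagtcagGTtggactagt
Over the 24340 introns listed on these 3 chromosomes, 97.9% began with GT and ended with AG, and the most frequent base at each of 9 donor positions spelled CAGGTAAGT, which the median donor matched at 6 positions. The donor of TARDBP exon 5 matched it at 7 positions, a score reached or passed by 41.9% of donors. The first 3′UTR donor matched at 5, the second at 6, and 96.7% and 79.6% of donors had as many matches or more. In TAF15 the late donor of exon 7 matched at 8 positions, a score reached by 10.5% of donors, whereas the early donor matched at 6, reached by 79.6%. These matches describe the letters and do not measure use of a site.

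In DMSO, EWSR1 and TAF15 transcripts were spliced at similar levels and TARDBP at a lower one. Per canonical intron, the mean level was 31.8 ± 0.33 CPM for EWSR1 (SD, n = 2), 29.6 ± 4.18 for TAF15 and 20.7 ± 1.57 for TARDBP, after scaling of library totals by trimmed means (TMM). EWSR1 and TAF15 did not differ beyond the spread of TAF15, whose libraries lay at 32.6 and 26.7, and both TARDBP libraries (19.6 and 21.8) lay below all 4 of these values.

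TARDBP stayed lowest in every condition, and the order of EWSR1 and TAF15 changed. Per canonical intron, EWSR1 overlapped TAF15 at 10 µg/mL DRB (28.1 and 26.8 against 30 and 27.6) and at 25 µg/mL DRB (32.4 and 45.5 against 31.5 and 37.5), and lay below it without overlap at 1 µg/mL α-amanitin (26.3 and 24.5 against 28.4 and 27.5) and at 2 µg/mL (22.9 and 23.2 against 29.5 and 27.9). EWSR1 held 518 and 529 CPM in the DMSO libraries, 465 and 444 at 10 µg/mL DRB, 531 and 759 at 25 µg/mL DRB, 435 and 406 at 1 µg/mL α-amanitin, and 382 and 384 at 2 µg/mL α-amanitin. Both libraries of each α-amanitin dose and of the lower DRB dose lay below both DMSO libraries, and those of the higher DRB dose lay above them, library 1 by little. TAF15 held 493 and 403 in DMSO, 465 and 424 and then 480 and 573 at the DRB doses, and 432 and 417 and then 448 and 421 at the α-amanitin doses. All of these overlapped the range between the DMSO libraries except library 2 of 25 µg/mL DRB. TARDBP held 99.2 and 109 in DMSO, 106 and 123 and then 69.7 and 60.4 at the DRB doses, and 89.8 and 99.8 and then 62.2 and 87.4 at the α-amanitin doses. Both libraries at 25 µg/mL DRB and both at 2 µg/mL α-amanitin lay below the DMSO libraries, and these 4 libraries had the lowest TARDBP levels of the 10.

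**Figure D1:**
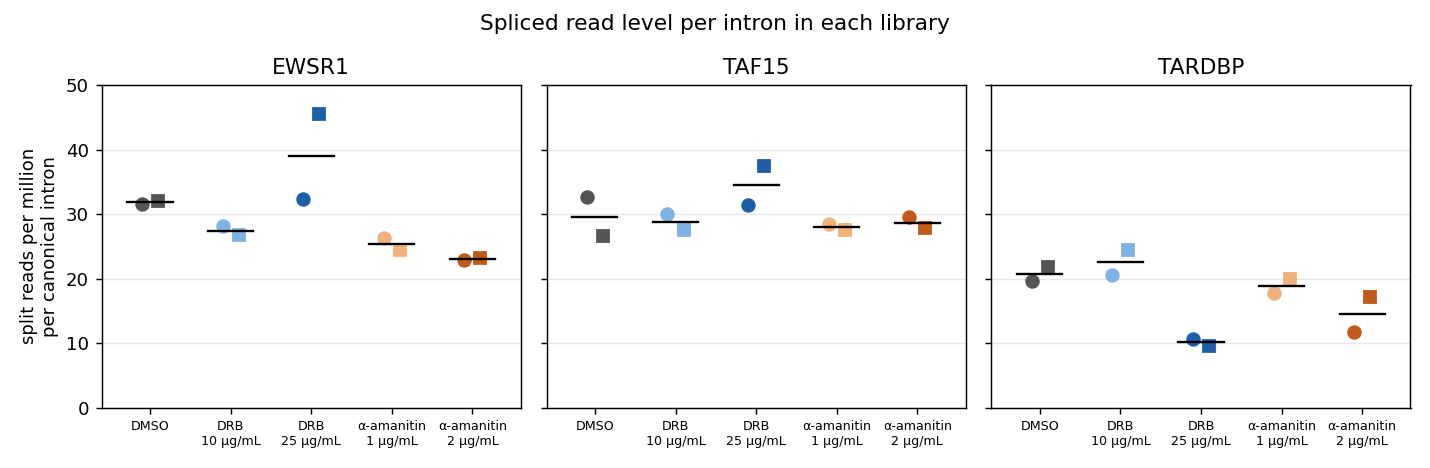
Level of EWSR1, TAF15 and TARDBP in each of the 10 libraries, in TMM-scaled CPM per canonical intron, by condition. Circles are library 1, squares library 2 and lines the mean of the 2; TARDBP at 25 µg/mL DRB, with a mean of 10.2, lies below its DMSO mean of 20.7, and EWSR1 at 2 µg/mL α-amanitin, with a mean of 23.0, below its DMSO mean of 31.8.

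At 25 µg/mL DRB, TARDBP fell and neither EWSR1 nor TAF15 passed the test. The log2 fold change against DMSO was -0.73 (SE 0.19, adjusted p = 0.021, limma voom with Benjamini-Hochberg adjustment over 9488 genes) for TARDBP, 0.29 (SE 0.17, adjusted p = 0.19) for EWSR1 and 0.24 (SE 0.15, adjusted p = 0.21) for TAF15. The values for EWSR1 and TAF15 turn to -0.20 and -0.26 when libraries are scaled to their total split reads, without TMM, and that for TARDBP becomes -1.25. In this comparison 61.1% of the genes tested were called and the median gene lay at -1.0 (-1.49 with total reads), so the fall of TARDBP was smaller than that of the median gene, and 53.4% of genes had a lower value. EWSR1 and TAF15 stood 1.29 and 1.24 above the median, with 68.7% and 67.7% of genes below them. Against the lower DRB dose, TARDBP also fell (-0.91, adjusted p = 0.0086) where 63.0% of genes were called, EWSR1 stood at 0.45 (adjusted p = 0.063) and TAF15 at 0.20 (adjusted p = 0.28). Without library 2 of 25 µg/mL DRB the change of TARDBP was -0.59 (adjusted p = 0.10), without either DMSO library its adjusted p was 0.050 and 0.10, and without library 1 of 25 µg/mL DRB EWSR1 rose by 0.51 (adjusted p = 0.019). In bulk samples, fewer cells with a transcript and less of it in each cell cannot be told apart.

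At 10 µg/mL DRB no member was called, where 14.9% of genes were. The log2 fold changes were -0.16 (SE 0.16, adjusted p = 0.55) for EWSR1, 0.04 (SE 0.14, adjusted p = 0.90) for TAF15 and 0.18 (SE 0.14, adjusted p = 0.42) for TARDBP, and the median gene stood at 0.03.

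With α-amanitin, the one call among the members was EWSR1 at the higher dose. It fell by 0.44 on the log2 scale at 2 µg/mL (SE 0.09, adjusted p = 0.036), a comparison in which 6.34% of 9637 genes were called and the median gene stood at 0.05. This call was lost without any one of the libraries compared (-0.46 to -0.42, adjusted p = 0.079 to 0.15), DMSO libraries included, and EWSR1 did not pass between the doses (-0.12, adjusted p = 0.56). TARDBP stood at -0.48 (SE 0.18, adjusted p = 0.14) with a wide gap between its libraries (62.2 and 87.4 CPM), and TAF15 at -0.03 (adjusted p = 0.90). At 1 µg/mL, 0% of genes were called by limma voom or by limma trend, with 976 and 1097 at an unadjusted p under 0.05, and the members stood at -0.32 (EWSR1, adjusted p = 0.47), -0.07 (TAF15, adjusted p = 0.85) and -0.13 (TARDBP, adjusted p = 0.82).

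**Figure D2:**
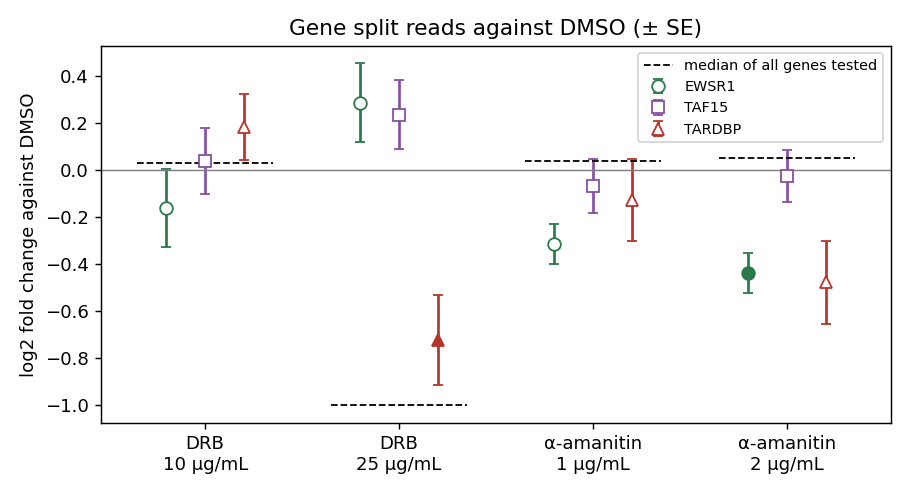
Log2 fold change against DMSO (± SE) of the split reads of EWSR1, TAF15 and TARDBP at each dose. Filled symbols have an adjusted p of at most 0.05, dashed lines are the median of all genes tested; at 25 µg/mL DRB that median is -1.0, below TARDBP (-0.73), EWSR1 (0.29) and TAF15 (0.24).

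Within TARDBP, the fall at 25 µg/mL DRB was uneven along the gene, and the last canonical intron, which joins exon 5 to the exon holding the C-terminal coding sequence and the 3′UTR, fell most. This intron 5 (11080656 to 11082181) had 88 and 135 split reads in DMSO, 99 and 142 at 10 µg/mL DRB, 7 and 11 at 25 µg/mL DRB, 104 and 146 at 1 µg/mL α-amanitin and 76 and 112 at 2 µg/mL. Only the higher DRB dose lay outside the range of the others. Intron 4, just before it, had 160 and 182 split reads in DMSO and still 55 and 74 at 25 µg/mL DRB, intron 3 had 85 and 105 and then 29 and 32, intron 2 had 40 and 61 and then 14 and 13, and intron 1 had 51 and 51 and then 14 and 37. As a share of all TARDBP split reads, intron 4 stayed between 34.7% and 37.6% on average in all 5 conditions, whereas intron 5 stood at 22.9% ± 3.41 (SD, n = 2) in DMSO and 4.88% ± 0.51 at 25 µg/mL DRB. The pooled share of intron 5 fell from 23.1% to 4.93% (adjusted p = 0.045), where 0.873% of the 59471 introns tested for their share of a gene were called. This test was added after the values were seen, and its call was lost when introns missing from a file were set to 2 reads (adjusted p = 0.18). The call was also lost without any one of the libraries compared (-20.3 to -15.5 percentage points), as were those of all other introns for this share. With intron 5 left out, the sum over the first 4 introns still fell at 25 µg/mL DRB (-0.78, adjusted p = 0.027). No member intron was called for its share in the other comparisons with DMSO, where 0% of introns were (5385, 7833 and 9406 at an unadjusted p under 0.05 at 10 µg/mL DRB and at 1 and 2 µg/mL α-amanitin, and 1083, 1276 and 1761 called by limma on log odds).

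**Figure D3:**
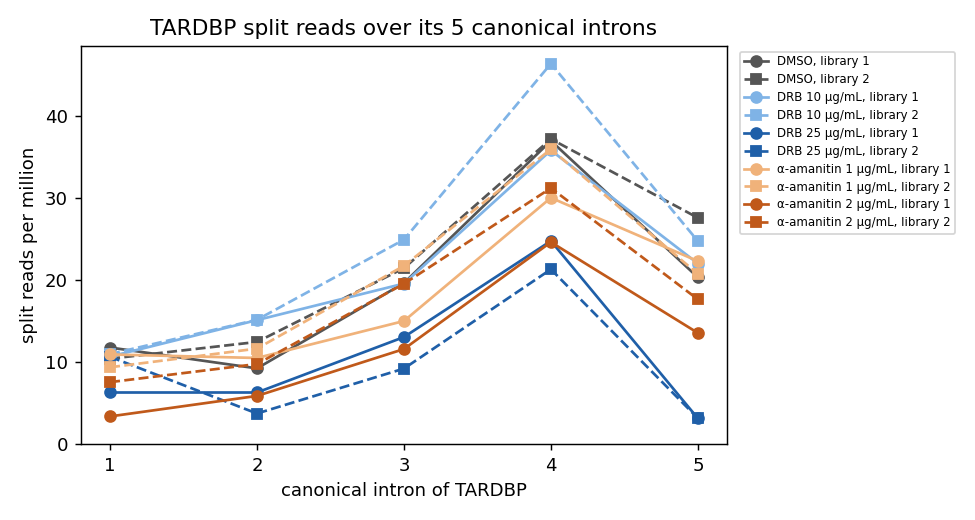
Split reads of TARDBP, in CPM, at each of its 5 canonical introns, 1 line per library (solid with circles for library 1, dashed with squares for library 2). The 25 µg/mL DRB libraries follow the others at a lower level up to intron 4 and drop to a mean of 3.16 at intron 5, where DMSO libraries have a mean of 23.9.

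Reads that ran unspliced past the donor of exon 5 were seen in every treated library and in no DMSO library. Unspliced reads at this donor numbered 0 and 0 in DMSO, 13 and 31 at 10 µg/mL DRB, 25 and 25 at 25 µg/mL DRB, 6 and 8 at 1 µg/mL α-amanitin and 26 and 22 at 2 µg/mL. The counts of 10 and 25 µg/mL DRB overlapped, although split reads at the higher dose were far fewer. Their share among reads at the donor that were unspliced or spliced to exon 6 was 78.1% (25 of 32, 95% Wilson interval 61.2% to 89.0%) and 69.4% (25 of 36, 53.1% to 82.0%) at 25 µg/mL DRB, and 25.5% and 16.4% at 2 µg/mL α-amanitin. Intervals cover counting error only. At the other end of intron 5, the acceptor of exon 6, unspliced reads numbered 7 and 0 at 25 µg/mL DRB, 0 and 3 and then 3 and 0 at the α-amanitin doses, and 0 elsewhere. In each library with unspliced reads, more were counted at the donor than at the acceptor.

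Over both ends, the unspliced share of intron 5 was 0% in both DMSO libraries, 6.16% and 9.84% at 10 µg/mL DRB, 69.6% and 53.2% at 25 µg/mL DRB, 2.80% and 3.63% at 1 µg/mL α-amanitin and 16.0% and 8.94% at 2 µg/mL. No treated library overlapped DMSO, and the doses of each drug did not overlap each other. The share is set against split reads to exon 6 alone. It leaves out reads from exon 5 to later acceptors, which were listed at 25 µg/mL DRB only. The pooled rise to 61.3% at 25 µg/mL DRB was called (adjusted p = 0.0094, quasi-binomial F test moderated with limma over 8946 introns), where 4.26% of introns were. It also exceeded the lower dose (adjusted p = 0.019, 4.48% of introns called). The pooled values of 8.37% at 10 µg/mL DRB, 3.29% at 1 µg/mL α-amanitin and 11.9% at 2 µg/mL did not pass (adjusted p = 0.32, 0.45 and 0.22). In these 3 comparisons 0% of introns were called by either tool, with 805, 1038 and 1699 at an unadjusted p under 0.05. The call at 25 µg/mL DRB was lost without any one of the libraries compared (53.2 to 69.6 percentage points), as were those of all other introns for retention. Intron 5 reached the minimum of 20 reads in the 25 µg/mL DRB libraries only with its unspliced reads. It could thus enter the test there only with a high unspliced share. Introns 1 to 3 of TARDBP had no unspliced read in any library, and intron 4 had 0.58% in DMSO and 0% at 25 µg/mL DRB (adjusted p = 0.40).

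Part of the TARDBP transcripts at 25 µg/mL DRB joined exon 5 to acceptors far inside the last exon. Split reads from exon 5 to 11083250, which lies 542 nt beyond the last coding base, numbered 7 and 3 in the libraries of that dose, and 3 more reads in library 2 ended at 11084359. Neither junction was listed in any of the other 8 libraries, and neither pair of sites is joined in the annotation, although each site is. The later acceptor at 11083250 took 50.0% and 17.6% of the split reads from exon 5 at 25 µg/mL DRB, and the canonical acceptor 50.0% and 64.7% against 100% in all other libraries. The pooled shares of 32.3% and 58.1% were called (adjusted p = 0.014 and 0.012), but 45.8% of 15236 introns were called in this comparison, and against the lower dose (adjusted p = 0.016 and 0.015) 39.7% were. The first part of exon 6 (11082181 to 11082307, and likewise to 11082298 and 11082915) had an inclusion index Ψ, the inclusion reads over their sum with doubled exclusion reads, of 1 in all other libraries and of 0.333 and 0.478 at 25 µg/mL DRB (pooled 40.9%, adjusted p = 0.0098), where 51.1% of 10875 exons were called. Against the lower dose these 3 forms were called as well (adjusted p = 0.012), where 43.9% of exons were. All of these features passed the count minimum for exclusion only through the reads of that dose, so that a difference was bound to appear. Without DMSO library 1 or 2, the adjusted p of the later acceptor was 0.065 and 0.075.

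The first donor inside the 3′UTR of TARDBP was spliced more often at 25 µg/mL DRB. At the first 3′UTR donor (11083386), split and unspliced reads in exon 11083255 to 11083386 numbered 3 and 102 in DMSO library 1 and 0 and 120 in library 2. At 25 µg/mL DRB they numbered 11 and 11 in library 1 and 13 and 23 in library 2. At 2 µg/mL α-amanitin they numbered 9 and 54 and then 11 and 99. The split share rose from 1.43% ± 2.02 (SD, n = 2) in DMSO to 43.1% ± 9.82 at 25 µg/mL DRB, and stood at 4.28% ± 1.47 at 10 µg/mL DRB, 4.31% ± 2.75 at 1 µg/mL α-amanitin and 12.1% ± 3.03 at 2 µg/mL. Libraries of the higher DRB and the higher α-amanitin dose lay above both DMSO libraries, and only those of 1 µg/mL α-amanitin overlapped them. Pooled, the unspliced share went from 98.7% to 58.6% at 25 µg/mL DRB (adjusted p = 0.0091, test added after the values were seen), where 9.50% of 4020 exon ends were called. For the form of this exon that begins at 11083250 it went from 98.8% to 60.9% (adjusted p = 0.0047, and 0.0087 against 10 µg/mL DRB). The share of the former was also lower than at 10 µg/mL DRB (96.0%, adjusted p = 0.015, 8.38% of exon ends called). Neither 10 µg/mL DRB (adjusted p = 0.76, 0.323% called) nor 2 µg/mL α-amanitin (88.4%, adjusted p = 0.25, 0.0951% called) passed this test against DMSO, nor did 1 µg/mL α-amanitin, where 0.0680% were called. Without DMSO library 2 the adjusted p at 25 µg/mL DRB was 0.057.

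**Figure D4:**
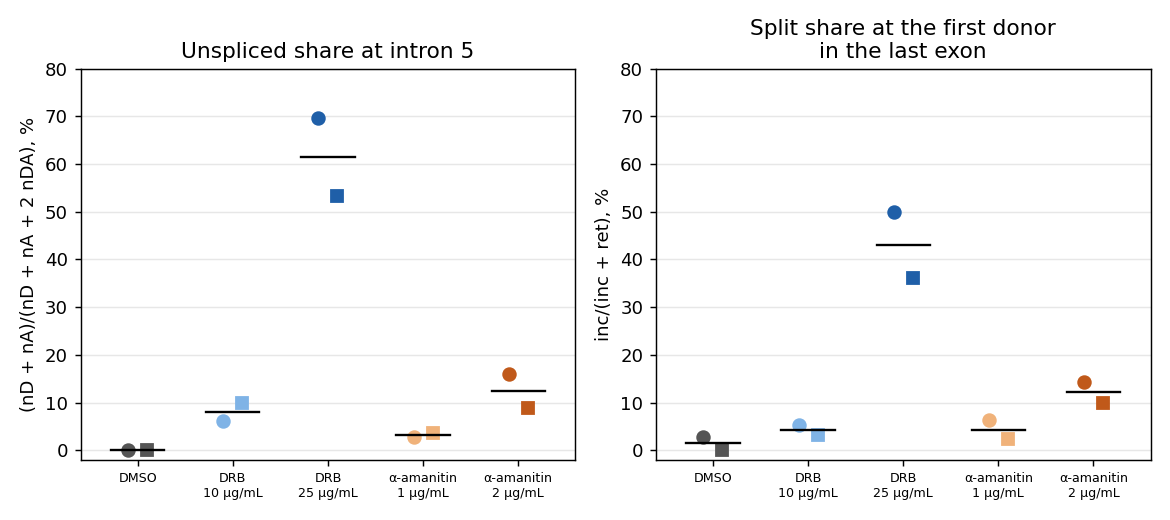
Left, share of unspliced reads at TARDBP intron 5, in %, over both ends of the intron; right, share of split reads at the first donor inside the 3′UTR, in %. Circles are library 1, squares library 2 and lines the mean of the 2; at 25 µg/mL DRB the left panel reaches 69.6% and 53.2% and the right panel 50.0% and 36.1%.

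The first 3′UTR intron (11083386 to 11084121, 734 nt) was listed with 5 and 5 split reads at 10 µg/mL DRB, 11 and 8 at 25 µg/mL DRB, 5 and 3 at 1 µg/mL α-amanitin and 9 and 11 at 2 µg/mL, and in neither DMSO library. The 3 reads from this donor in DMSO library 1 went to another acceptor at 11083924. The second 3′UTR intron (11084392 to 11085167, 774 nt) had 14 and 21 split reads at 25 µg/mL DRB, 7 in library 1 of 10 µg/mL DRB and 5 in library 1 of 2 µg/mL α-amanitin. With 21 reads against 11 at intron 5, it was spliced more often than the last canonical intron in library 2 of 25 µg/mL DRB, and so it was in library 1 with 14 against 7. Their shares of all TARDBP split reads, 5.21% and 9.59% pooled at 25 µg/mL DRB against 0% in DMSO, narrowly missed the threshold (adjusted p = 0.050 and 0.053). With no split read in DMSO, both introns could enter this test only through DRB libraries, so that a difference from DMSO was bound to appear. Further junctions with an end in the last exon were each seen in 1 library, namely 11083386 to 11084359 with 5 reads at 25 µg/mL DRB, 11082307 to 11083320 with 3 reads in DMSO and, ending beyond the exon, 11085265 to 11089744 with 4 reads at 2 µg/mL α-amanitin. In DMSO, the introns of TARDBP with the highest unspliced share were those within its last exon (97.6% at 11082307 to 11083320 and 97.2% at 11083386 to 11083924), where most reads run through. Outside the last exon, single junctions from 11076311 to 11076901 (3 reads) and from 11078523 to 11078790 (4 reads) were each listed in 1 library of 25 µg/mL DRB.

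In TAF15, the main variable site was the donor of exon 7, and the share of its early form was highest at 10 µg/mL DRB. Exon 7 (34151082 to 34151202, 121 nt) can end 99 nt early at 34151103, which leaves 22 nt of the exon, and this early donor is not an annotated splice site of the gene. Split reads from the early donor numbered 10 and 8 in DMSO, 46 and 35 at 10 µg/mL DRB, 10 and 17 at 25 µg/mL DRB, 10 and 11 at 1 µg/mL α-amanitin and 5 and 6 at 2 µg/mL. The late donor had 46 and 49 in DMSO, 39 and 58 and then 26 and 53 at the DRB doses, and 65 and 87 and then 76 and 75 at the α-amanitin doses. The share of the early donor was thus 17.9% (10 of 56, 95% Wilson interval 10.0% to 29.8%) and 14% (8 of 57, 7.29% to 25.3%) in DMSO, and 54.1% (46 of 85, 43.6% to 64.3%) and 37.6% (35 of 93, 28.5% to 47.8%) at 10 µg/mL DRB. It was 27.8% and 24.3% at 25 µg/mL DRB, 13.3% and 11.2% at 1 µg/mL α-amanitin, and 6.17% and 7.41% at 2 µg/mL. Both DRB doses lay above DMSO and both α-amanitin doses below it, with no overlap between any of the 5 conditions.

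None of these differences passed the threshold after adjustment. Pooled shares were 15.9% in DMSO and 45.5% at 10 µg/mL DRB (unadjusted p = 0.0066, adjusted p = 0.15), where 0.0263% of introns were called, 25.5% at 25 µg/mL DRB (adjusted p = 0.27) and 6.79% at 2 µg/mL α-amanitin (adjusted p = 0.20), where 0.0243% of 16491 introns were called. At 1 µg/mL α-amanitin the share was 12.1%, and 0% of introns were called by either tool (1959 at an unadjusted p under 0.05). The difference between the DRB doses did not pass either (adjusted p = 0.073). The junction into exon 7 from exon 6 had 299 and 245 split reads in DMSO and 211 and 247 at 10 µg/mL DRB. Unspliced reads at the acceptor of exon 8 numbered 9 and 5 in DMSO, 16 and 21 at 10 µg/mL DRB, 10 and 3 at 25 µg/mL DRB, 0 and 0 at 1 µg/mL α-amanitin and 4 and 10 at 2 µg/mL. The unspliced share of intron 7, set against split reads of the late donor alone, was 6.86% in DMSO and 17.1% at 10 µg/mL DRB (adjusted p = 0.49). It leaves out the early-donor reads into the same acceptor, so it is not a share of all splicing into exon 8.

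**Figure D5:**
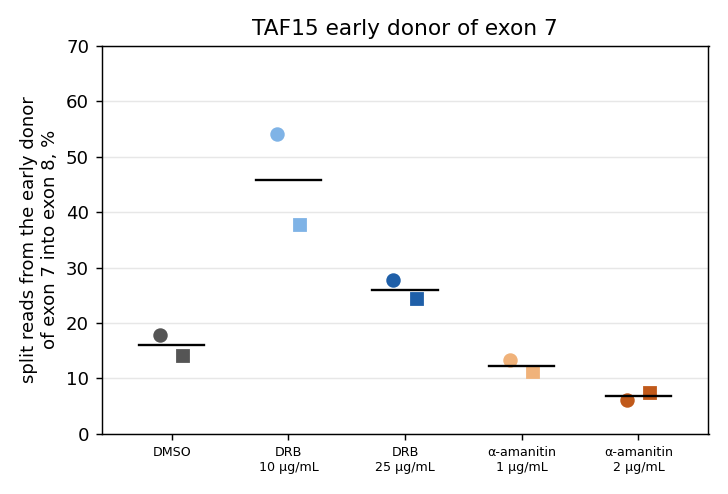
Share of split reads into TAF15 exon 8 that came from the early donor of exon 7, in %, by library. Circles are library 1, squares library 2 and lines the mean of the 2; the 10 µg/mL DRB libraries stand at 54.1% and 37.6% and the 2 µg/mL α-amanitin libraries at 6.17% and 7.41%.

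Other alternative sites of TAF15 varied less. The donors of exon 4, 9 nt apart, shared their acceptor in every library, and the earlier one (34147243) took 8.85% ± 0.35 of the split reads in DMSO (SD, n = 2) and between 7.72% and 11.2% on average in the treated conditions. Its 11 and 8 reads in DMSO stood against 110 and 85 of the later donor. An annotated 92-nt exon between exons 1 and 2 (34136976 to 34137067) had 0 and 0 inclusion reads in DMSO, 6 and 3 at 10 µg/mL DRB, 4 and 5 at 25 µg/mL DRB, 0 and 3 at 1 µg/mL α-amanitin and 7 and 4 at 2 µg/mL. Only 1 µg/mL α-amanitin overlapped DMSO. Its Ψ was 0 in both DMSO libraries and 0.037 and 0.020 at 25 µg/mL DRB (pooled 2.51%, adjusted p = 0.039, where 51.1% of exons were called). With no inclusion read in DMSO, the exon could enter this test only through the DRB libraries, so that a difference from DMSO was bound to appear. Leaving out any library compared ended this call (1.99 to 3.70 percentage points), as it did those of all other exons at this dose. Exon 15, 562 nt long and coding for the arginine-glycine-rich repeats, was skipped by 6 and 5 reads at 10 µg/mL DRB and by none listed elsewhere. Its Ψ there was 0.968 and 0.978 against 1 in the other 8 libraries (pooled 97.3%, adjusted p = 0.14 against DMSO, where 0.0276% of exons were called). Shorter forms of exon 15 stood at 94.8% on the same exclusion reads. The exon and its shorter forms met the minimum of exclusion reads only through the 10 µg/mL DRB libraries. A difference from DMSO was therefore bound to appear. The canonical junction from exon 15 to exon 16 took 96.4% of its acceptor's reads at 10 µg/mL DRB and 100% at 25 µg/mL DRB (adjusted p = 0.038, where 39.7% of introns were called), but all competing reads lay in the 10 µg/mL DRB libraries, through which alone the junction passed the count minimum, so that a difference was bound to appear.

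The introns of TAF15 with the highest unspliced share in DMSO were those of the early donors, 92.2% at 34151103 and 86.5% at 34147243, where reads of the longer exon cross the site, followed by intron 7 at 6.86%. None of the 8 TAF15 introns tested under DRB or of the 13 tested under α-amanitin was called. The share at 34151103 was 68.6% at 10 µg/mL DRB (adjusted p = 0.43) and 96.2% at 2 µg/mL α-amanitin (adjusted p = 0.37). Besides these and intron 7, the share at 34147243 moved most of those tested, to 83.4% at 1 µg/mL α-amanitin (adjusted p = 0.84). Every other canonical TAF15 intron had a pooled unspliced share of at most 1.34% in DMSO.

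In EWSR1, the skipping of 2 coding exons was seen in most libraries, and no change of it passed the test. Exon 4 (29669730 to 29669853, 124 nt) was skipped by a junction from exon 3 to an acceptor 101 nt inside exon 5, with 13 and 27 split reads in DMSO, 16 and 29 at 10 µg/mL DRB, 0 and 26 at 25 µg/mL DRB, 17 and 30 at 1 µg/mL α-amanitin and 24 and 30 at 2 µg/mL. Its inclusion index was 0.937 and 0.896 in DMSO and 0.883 and 0.880 at 2 µg/mL α-amanitin, the one dose at which both libraries lay below both DMSO libraries. The pooled change of -3.24 percentage points did not pass (adjusted p = 0.39), and 0.0290% of 10341 exons were called at this dose. Overlapping exons that share these exclusion reads stood lower. In DMSO and at 2 µg/mL α-amanitin, the form of exon 4 that begins at 29669727 had 79.2% and 73.1% (adjusted p = 0.41), the one that ends at 29669781 had 87.6% and 83.2%, and the first bases of exon 5 (29674019 to 29674030) had 78.2% and 71.4% (adjusted p = 0.39).

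Exon 6 of EWSR1 (29678379 to 29678546, 168 nt) was skipped by 0 and 7 split reads in DMSO, 12 and 14 at 10 µg/mL DRB, 6 and 7 at 25 µg/mL DRB, 0 and 5 at 1 µg/mL α-amanitin and 8 and 11 at 2 µg/mL. Its Ψ was 1 and 0.961 in DMSO, 0.903 and 0.917 at 10 µg/mL DRB, 0.912 and 0.959 at 25 µg/mL DRB, 1 and 0.974 at 1 µg/mL α-amanitin and 0.944 and 0.932 at 2 µg/mL. Both DRB doses and the higher α-amanitin dose lay below DMSO without overlap, whereas the lower α-amanitin dose overlapped it. The pooled values fell short of the threshold (adjusted p = 0.22 at 10 µg/mL DRB, 0.26 at 25 µg/mL DRB and 0.33 at 2 µg/mL α-amanitin). A junction that skipped exons 8 and 9 together had 3 or 4 reads in 5 libraries, and exon 9 was included at 93.2% at 2 µg/mL α-amanitin against 100% in DMSO (adjusted p = 0.21). With no skipping read in DMSO, exon 9 could enter this test only through the α-amanitin libraries, so that a difference was bound to appear. At 1 µg/mL α-amanitin 0% of exons were called by either tool, with 1181 at an unadjusted p under 0.05.

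The acceptors of EWSR1 exon 9 lie 3 nt apart, and both were used in every library at similar counts. The first had 17 and 22 split reads in DMSO, 21 and 29 at 10 µg/mL DRB, 8 and 26 at 25 µg/mL DRB, 17 and 26 at 1 µg/mL α-amanitin and 18 and 26 at 2 µg/mL. The second had 23 and 17, 20 and 21, 15 and 34, 21 and 34, and 34 and 22. Its mean share was 50.5% ± 9.84 in DMSO (SD, n = 2), 45.4% ± 4.79 and 60.9% ± 6.05 at the DRB doses, and 56.0% ± 0.99 and 55.6% ± 13.8 at the α-amanitin doses. All conditions overlapped DMSO, and no difference passed the test.

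In DMSO, EWSR1 held the members' canonical introns with the highest unspliced shares, those on either side of exon 9. Intron 8 (29684775 to 29687551) had 20 and 21 unspliced reads at its acceptor in DMSO, 31 and 16 at 10 µg/mL DRB, 6 and 8 at 25 µg/mL DRB, 15 and 11 at 1 µg/mL α-amanitin and 20 and 12 at 2 µg/mL. Its unspliced share, set against split reads to the first acceptor alone, was 38.3% ± 4.30 in DMSO and 20.3% ± 9.86 at 25 µg/mL DRB. The 40 DMSO reads spliced to the second acceptor are left out of it. Most unspliced reads of intron 8 in DMSO lay at the acceptor and not at the donor. This intron was tested under α-amanitin alone (23.2% pooled at 1 µg/mL, adjusted p = 0.45). Taken to the second acceptor, the share was 52.9% in DMSO, 58.8% at 10 µg/mL DRB and 35.1% at 25 µg/mL DRB (adjusted p = 0.19). Intron 9 (29687588 to 29688126) had 12.6% in DMSO, 10.3% and 4.83% at the DRB doses (adjusted p = 0.90 and 0.20) and 8.99% and 8.64% at the α-amanitin doses. Intron 14 (29694885 to 29695224) went from 3.27% in DMSO to 0% at 25 µg/mL DRB, and narrowly missed the threshold (adjusted p = 0.052). The highest unspliced shares in DMSO belonged to introns with an end inside an exon, 86.4% at 29695270 to 29695589, 67.5% at 29668420 to 29674120 and 52.9% at 29684775 to 29687554, where reads of the longer exon count as unspliced. The last of these differs from intron 8 only in its acceptor, so reads of unspliced intron 8 count in it as well.

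At 25 µg/mL DRB, 1 of the members' 19 introns tested for retention was called against DMSO (TARDBP intron 5), where 4.26% of all introns were, and 1 of 49 for its share of a gene (the same intron), where 0.873% were. Of 17 exons 4 were called (3 overlapping forms of TARDBP exon 6 and 1 TAF15 exon) and of 25 junctions 2 (both from TARDBP exon 5), shares below the 51.1% and 45.8% of all those tested. Of 12 exon ends 2 were called (overlapping exons at the first TARDBP 3′UTR donor), where 9.50% were. The TARDBP exon 6 forms and exon 5 junctions and the TAF15 exon entered their tests only through DRB libraries, and TARDBP intron 5, with 7 and 11 split reads at that dose, met the minimum of 20 reads for retention only with its unspliced reads, so these counts do not show in which member calls lie. At the other 3 doses no intron, exon, junction or exon end of a member was called against DMSO.

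Split reads were uneven along EWSR1 and TAF15 in DMSO, and the canonical introns with the fewest lay beside short exons. EWSR1 introns 1 and 8, which lead into exons of 37 and 38 nt, had 15 and 26 and 17 and 22 split reads, whereas intron 3 had 256 and 308. TAF15 intron 7, which leads into an exon of 35 nt, had 46 and 49, whereas intron 6 had 299 and 245. A short exon did not go with few reads everywhere, since EWSR1 intron 2, on the other side of the 37-nt exon, had 166 and 234.

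Genes with known links to these proteins were counted in 6 lists, to be read against all genes, of which 61.1% were called at 25 µg/mL DRB (20.2% rose and 41% fell). At 25 µg/mL DRB, of 5 genes for nuclear import and arginine methylation of FET proteins 2 rose and 2 fell, with a median log2 change of 0.35 against -1.0 for all genes. TNPO2, an importin for proline-tyrosine nuclear signals, rose by 2.28 (adjusted p = 0.00054), and PRMT1, which methylates arginines of FET proteins, rose by 0.64. The importins KPNA2 and KPNB1 had log2 changes of -1.98 and -0.57, both called. TNPO2 also rose at 10 µg/mL DRB by 0.68 (adjusted p = 0.021), where KPNA2 fell by 0.69, and KPNB1 fell by 0.69 at 2 µg/mL α-amanitin (adjusted p = 0.039).

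Of 12 TFIID genes tested, 2 rose and 6 fell at 25 µg/mL DRB (median -2.25), and of 10 stress granule genes 1 rose and 6 fell (median -1.38). TAF2, TAF4, TAF8 and TAF11 were listed at 0 in both libraries of that dose, against 137 and 221, 37 and 85, 33 and 65, and 83 and 96 reads in DMSO. TAF10 rose by 1.07, and TAF3, which reads a methylated histone mark, rose by 4.03 there and by 2.31 at 10 µg/mL DRB (adjusted p = 0.036), from 11 and 16 reads in DMSO. The granule nucleators G3BP1 and G3BP2 stood at -1.19 and -1.76 and FXR1 at -1.58, all called, while FXR2 rose by 0.66 and also rose by 0.74 at 2 µg/mL α-amanitin. CAPRIN1, a partner of G3BP1, rose by 0.45 at 10 µg/mL DRB (adjusted p = 0.028).

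Of 3 paraspeckle genes, NONO rose by 0.50 (adjusted p = 0.041) and PSPC1 fell at 25 µg/mL DRB, the latter to 0 and 61 reads from 366 and 438. Of 3 U1 snRNP genes, for proteins of the particle that recognises donors, SNRNP70 rose by 0.76 and SNRPC by 0.93, against a list median of 0.76. SNRNP70 also rose by 0.46 at 10 µg/mL DRB and by 0.47 at 2 µg/mL α-amanitin, where SNRPA fell by 0.86 (adjusted p = 0.027). Of 10 known splicing targets of TDP-43 tested, 3 rose at 25 µg/mL DRB, namely AGRN by 1.72, RANBP1 by 1.18 and PFKP by 0.65, and 2 were called lower, HDAC6 and GPSM2, both listed at 0 there (median -0.14). PFKP fell by 0.69 at 10 µg/mL DRB (adjusted p = 0.017), and INSR, listed at 0 in DMSO, had 11 and 12 reads there. No gene of these lists was called at 1 µg/mL α-amanitin. Every call named at 10 µg/mL DRB was lost without any one of the libraries compared. At 2 µg/mL α-amanitin, the calls over all genes were lost without either DMSO library. Without library 1 of that dose nearly all were lost, and without library 2 there were fewer. Changes at 25 µg/mL DRB are relative to TMM scaling, and scaling to total reads moves the median gene from -1.0 to -1.49.

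Over the 10 libraries, the level of EWSR1 was most like those of MRPL24 (Pearson r = 0.97), PYCR1 (0.96) and SFSWAP (0.95) among 7079 genes. TAF15 was most like SND1 (0.96), TMEM9 (0.94) and NAGLU (0.93), and TARDBP most like RAB10 (0.99), AKR1B10 (0.97) and ZFAND2B (0.97). Among the members, EWSR1 and TAF15 had r = 0.77, EWSR1 and TARDBP -0.31, and TAF15 and TARDBP -0.61. These correlations describe 10 libraries in which the 2 of 25 µg/mL DRB stand apart, and they share library totals and scaling.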

How the data were processed

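RNA-seq data of A549 cells were taken as deposited by the authors, who mapped 75-nt reads with STAR (2.7.3a per the submitters' notes, another version per the methods) on GRCh37 and obtained, with the IPSA pipeline, a table of introns and exons per library. The deposited values are counts held in a text field: split and unspliced reads per intron, and reads for inclusion, exclusion and retention per exon, and the files show no sign that they were normalized. Strand-specific libraries were counted by splice site. An intron not listed in a library was taken as 0 in gene sums, junction shares and shares of a gene. For retention, inclusion and exon ends, an intron or exon not listed in a library was left missing and not tested in that fit. Unspliced reads of introns appear to be counted only at sites that the same library also lists as a junction. Exon counts went beyond this, with 120 unspliced and no split reads at the first TARDBP 3′UTR donor in DMSO library 2.

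Sums of split reads over the introns of a gene were tested with limma voom (limma 3.58.1, R 4.3.3) after TMM scaling, where 2 libraries had 10 reads or more and all 6 together 15 or more. Retention, inclusion and junction shares were tested with quasi-binomial models and F tests, with limma moderating the spread, which was kept at 1 or above. Retention needed 20 reads in every library, and inclusion a denominator of 10 and 10 reads of each kind over the fit. Each drug was fitted apart, both doses with DMSO (6 libraries), and p-values were adjusted by Benjamini and Hochberg over all features, with 0.05 as the threshold. The count tests that had been planned were replaced, since the unit of the field was recorded as other. The intron's share of its gene and the unspliced share at exon ends were tests added after the values were seen. The scripts were tested on simulated data. All results of the members with an adjusted p of at most 0.05 are named, with, for each member, the 3 introns most retained in DMSO and the 3 that changed most, exons with a pooled Ψ between 0.05 and 0.95, introns in the last exon of TARDBP, and the 3 genes most alike over the libraries with a mean of at least 50 reads. Members and gene lists were chosen with earlier results of these data known. Alternatives were other scalings, filters and fits, a replicate block, and leaving out each library of a comparison in turn. Interval bounds are Wilson intervals at 95%. The sequence of 1 splice site is not reported here.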

Additional observations from a re-analysis of the deposited data

How the results depend on the processing

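Groups of 2 libraries limited every test. Scaling to total split reads in place of TMM turned the log2 change of EWSR1 to -0.20 at 25 µg/mL DRB and -0.17 between the DRB doses, and that of TAF15 to -0.26, -0.43 (adjusted p = 0.018), 0.0040 and 0.013 at 25 µg/mL DRB, between the DRB doses and at 1 and 2 µg/mL α-amanitin. With only introns listed in every library, TAF15 stood at -0.015, -0.082 and 0.031 at 25 µg/mL DRB, between the doses and at 2 µg/mL α-amanitin, and 2934, 3050 and 1252 genes were called at 25 µg/mL DRB, between the DRB doses and at 2 µg/mL α-amanitin. With all 10 libraries in 1 fit, EWSR1 stood at -0.45 (adjusted p = 0.080) at 2 µg/mL α-amanitin and 0.51 (adjusted p = 0.015) between the DRB doses, and TAF15 at -0.0061 at 10 µg/mL DRB. With only DMSO and the dose compared, EWSR1 stood at -0.45 (adjusted p = 0.075) at 2 µg/mL α-amanitin, TARDBP at -0.62 (adjusted p = 0.089) at 25 µg/mL DRB and the TARDBP intron 5 rise at 61.3 percentage points (adjusted p = 0.050), and 0 genes were called at 2 µg/mL α-amanitin and 1 and 5 introns for retention at 10 and 25 µg/mL DRB. Limma on log odds gave TARDBP intron 5 retention 61.3 and 52.9 percentage points (adjusted p = 0.050 and 0.076) against DMSO and the lower DRB dose, and the last exon donor -37.3 (adjusted p = 0.072) against the lower dose. It called 0 introns for retention at 25 µg/mL DRB, 964 and 414 exons and 1300 and 644 junctions at 10 µg/mL DRB and 2 µg/mL α-amanitin, and limma trend 906 genes at 10 µg/mL DRB. With missing introns as 2 reads, the share of TARDBP intron 5 fell by 17.6 points (adjusted p = 0.18), and 16, 2769 and 0 junctions were called at 10 and 25 µg/mL DRB and 2 µg/mL α-amanitin. Retention at 25 µg/mL DRB had 146 calls with 50 reads as the minimum, 70 at donors and 143 at acceptors, retention at 2 µg/mL α-amanitin 2 with 50 reads, and inclusion at 10 µg/mL DRB 179 with a denominator of 30. At its donor alone, EWSR1 intron 14 stood at 0.43 points at 1 µg/mL α-amanitin. The cause of these shifts was not tested.

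Replicate numbers are shared by all conditions, but nothing shows that they mark a culture or day, and deviations of same-numbered libraries correlated at 0.067 to 0.57 between conditions over 4288 genes. With the replicate block, TARDBP stood at -0.47 (adjusted p = 0.035) at 2 µg/mL α-amanitin, its intron 5 at 61.3 points of retention (adjusted p = 0.34) and -18.2 points of gene share (adjusted p = 0.38) and its later acceptor at 32.3 points (adjusted p = 0.10) at 25 µg/mL DRB. The block called 13 and 2145 genes at 1 and 2 µg/mL α-amanitin, and 0 introns for retention at 25 µg/mL DRB and 0 exons and 0 junctions at 10 and 25 µg/mL DRB and 2 µg/mL α-amanitin.

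Leaving out 1 library at a time, log2 changes ranged from 0.0069 to 0.51 for EWSR1 and from -0.80 to -0.59 for TARDBP at 25 µg/mL DRB, and from -0.46 to -0.42 for EWSR1 at 2 µg/mL α-amanitin. Those of TAF15 ranged from -0.11 to 0.18 at 10 µg/mL DRB and from -0.21 to 0.070 and -0.17 to 0.11 at 1 and 2 µg/mL α-amanitin. At 25 µg/mL DRB, TARDBP intron 5 retention ranged from 53.2 to 69.6 points, its gene share from -20.3 to -15.5 and the last exon donor from -48.7 to -34.8. The gene share of intron 5 ranged from -3.00 to 1.82 and -4.48 to 0.33 points at 1 and 2 µg/mL α-amanitin. EWSR1 exon 4 ranged from -2.88 to 1.40, -0.66 to 8.59 and -3.11 to 0.99 points at 10 and 25 µg/mL DRB and 1 µg/mL α-amanitin, and exon 6 from -1.55 to 2.35 at the latter. The later acceptor of EWSR1 exon 9 ranged from -12.4 to 1.47 points at 10 µg/mL DRB and from -1.38 to 12.5 and -4.80 to 14.8 at the α-amanitin doses, and intron 9 retention from -6.15 to 0.18 and -7.81 to 0.25. Gene calls numbered 0 at 10 µg/mL DRB, 2480 to 4539 at 25 µg/mL DRB and 0 to 392 at 2 µg/mL α-amanitin, and calls for retention, inclusion and junction shares 0.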
